A study of Mus musculus with 8 samples.

Results

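GABA-A receptors are the chloride channels through which GABA, the main inhibitory transmitter of the adult brain, acts within milliseconds. Each receptor is built of 5 subunits drawn from several families, and the alpha subunits set much of its pharmacology and its place on the neuron. Gabra2 and Gabra3 encode alpha subunits found mostly at synapses, Gabra5 encodes an alpha subunit known for its high level in the hippocampus and for tonic inhibition, and Gabra4 encodes an alpha subunit that often assembles with the delta subunit, encoded by Gabrd, in receptors outside the synapse. Gabrb1 and Gabrb2 encode beta subunits, which help to form the GABA binding site and are needed for the receptor to reach the membrane. These 7 genes, of 27373 gene names on the arrays, were taken by name, and all their non-control probes were examined, 15 of 41174 probes in all.

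Hippocampal RNA of 4 BTBR and 4 B6 mice was compared. The BTBR mice are labeled BTBR T+ Itpr3tf/J, an inbred strain studied as a model of autism, and the B6 mice are labeled C57BL/6J and wild type. All 8 mice are labeled male and 5 months old, none received a drug, and the tissue is labeled whole hippocampus. The labels also give C57BL/6J as the strain background of the BTBR mice, whereas the methods describe purchased inbred lines, so that the strains differ over the whole genome and not at 1 locus. Each array held the Cy3-labeled RNA of 1 sample, and the arrays lay on 2 slides, with replicates 1 and 2 of both strains on slide 1 and replicates 3 and 4 on slide 2. Values below are quantile-normalized log2 intensities, and differences are BTBR minus B6. Probes differ in how strongly they bind, so that the level of 1 probe does not tell whether its RNA is more abundant than that of another probe. The brightest probe of a gene is the one with the highest mean over the 8 arrays.

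Signal over background sets the precision of array values, and 56.8% to 71.9% of the probes were well above background on the single B6 arrays and 61.9% to 71.5% on the BTBR arrays. The median SD over all tested probes was 0.11 between B6 arrays and 0.14 between BTBR arrays. Markers of neighboring tissue were uneven between the arrays. The summed intensity of 10 thalamic markers was 548% of the B6 mean on BTBR 1 and between 82.4% and 117% on the other 7 arrays. The summed intensity of 8 striatal markers was 603% on BTBR 2, 244% on B6 2, 136% on BTBR 1 and between 35.1% and 58.5% on the other 5 arrays. Hippocampal markers went the other way, with the sum of 8 dentate granule cell markers at 31.0% on BTBR 1 and 16.0% on BTBR 2. These arrays are therefore set apart wherever a subunit followed them. Limma called 0 of the 10 thalamic, 8 striatal, 8 choroid plexus, 5 CA1, 4 measured CA3, 12 interneuron, 5 general neuronal and 6 oligodendrocyte markers between the strains, and 5 of these 58 had an unadjusted p under 0.05. It called 2 of 8 dentate and 1 of 6 astrocyte markers lower and 1 of 6 microglial markers higher in BTBR. Markers and all 18398 genes were taken by their brightest tested probe. Of all genes, 7.82% were called in either direction and 3.49% as higher. The share of all genes with an unadjusted p under 0.05 was not counted. The tissue as a whole carried its hippocampal markers, since 7 of 8 dentate, 5 of 5 CA1 and 4 of 5 CA3 marker genes had a probe well above background on all 8 arrays. As the tissue was measured in bulk, fewer cells of a type and less RNA per cell cannot be told apart.

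The probes that carry the results are 60 bases long, and their sequences in the array files are shown here because the comparison of a subunit rests on what each probe can bind. They are written from 5′ to 3′ in lower case, with no part marked. The first 30 bases are given for the probes that may lie outside the coding sequence, and the whole length for the Gabra5 probe that is open in all 3 reading frames. The longest run of bases shared by 2 probes of different subunit genes was 9 bases, and 6 bases for 2 probes of 1 gene, over all 15 probes.
Gabra2 A_52_P336171: taatgacattatgataagttagacgtccca
Gabra2 A_51_P417507: acaggcagaaaacatcccgtgccaaaagag
Gabra2 A_52_P446146: aaccttcctcacgaaaatcaaaagtaatcc
Gabra5 A_51_P151316: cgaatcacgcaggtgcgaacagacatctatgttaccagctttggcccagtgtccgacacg
Gabra5 A_52_P143037: ctgtggacatttaagtccagtacgaattgc
Gabrb2 A_52_P460687: tgcagatgaatctttcccctcatgattaac

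Of the 15 probes, 13 passed the filter on dim probes and were tested, and 12 of these were well above background on all 8 arrays. Gabra2 was called higher in BTBR mice at all 3 of its probes and Gabrb2 at 1 of its 3 tested probes, and no subunit probe was called lower. An unadjusted limma p under 0.05 was found at 5 probes, all higher in BTBR. The share of all tested probes under that level was not counted, so this number stands without a background. These 4 calls made up 30.8% of the 13 tested probes, whereas limma called 7.61% of the 27981 tested probes in either direction and 3.31% as higher in BTBR. At 5 of the 13 probes (38.5%) the 4 BTBR values and the 4 B6 values did not overlap, all 5 with BTBR higher. Such probes made up 14.2% of all tested probes in either direction and 6.91% with BTBR higher. The median difference over the 13 probes was 0.10 (log2), against 0.01 over all tested probes, and the median size of the difference was 0.33, against 0.10 over all. Of the 4 calls 3 are of 1 gene, and probes of 1 gene are not independent of each other. With each gene taken by its brightest probe, 1 of the 7 genes, Gabra2, was called, and of all 18398 genes taken in this way 7.82% were called in either direction and 3.49% as higher. Without B6 2 the number of called probes was 2, both of Gabra2.

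**Figure D1:**
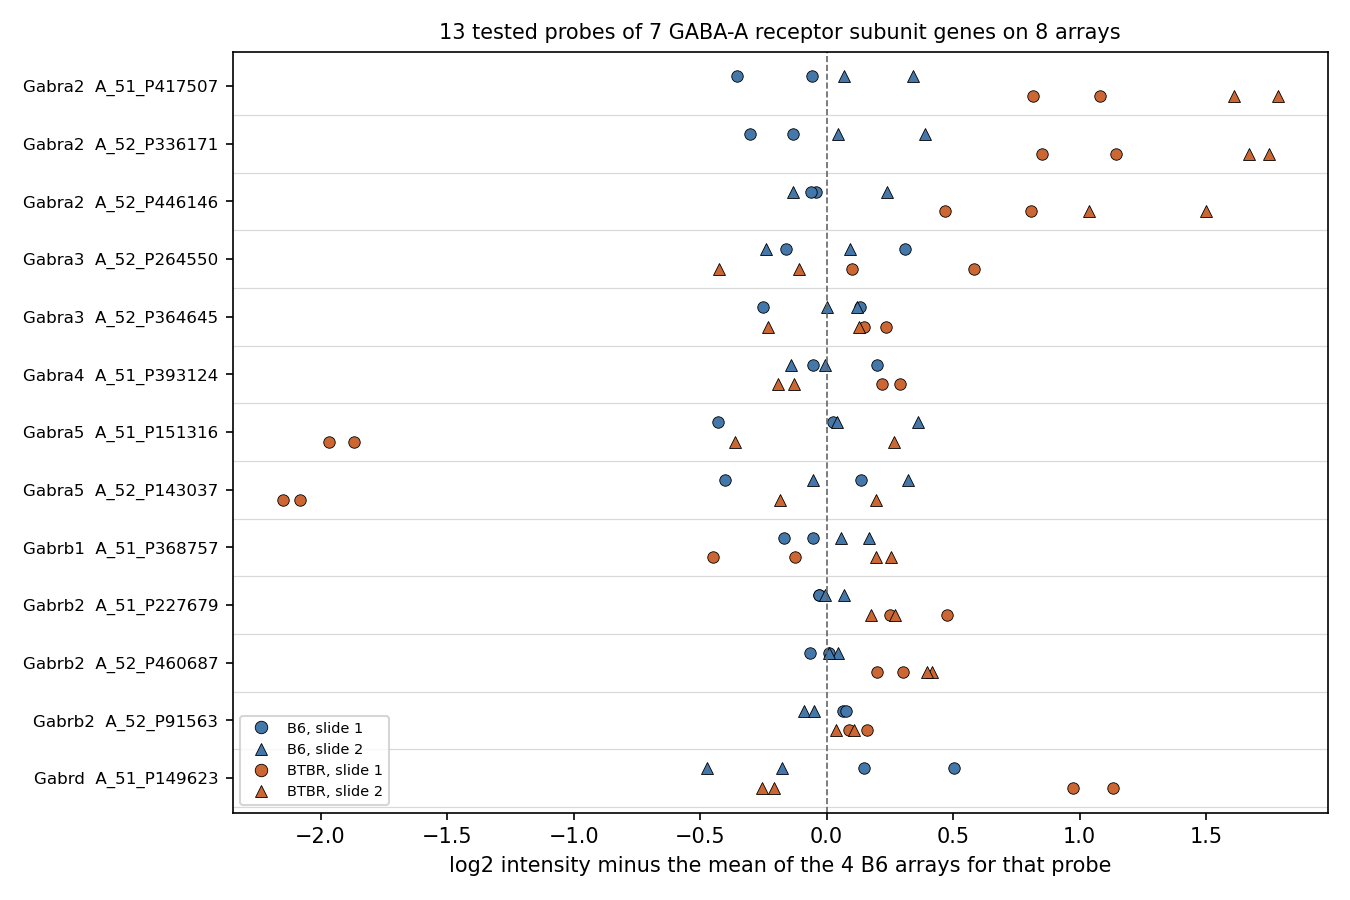
Log2 intensity of the 13 tested probes on each of the 8 arrays, given as the distance from that probe's own B6 mean (dashed line at 0). Blue marks are B6 and orange marks BTBR, with circles for slide 1 and triangles for slide 2, and the 3 Gabra2 probes have all 4 BTBR arrays to the right of all 4 B6 arrays, whereas the 2 Gabra5 probes have only BTBR 1 and BTBR 2 far to the left.

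Among the alpha subunits, Gabra2 was the one called between the strains over all 8 arrays. Its brightest probe, A_52_P336171 (cDNA AK079593, mm9 chr5:71350022-71350081, minus strand), measured 11.61, 11.44, 11.79 and 12.13 on B6 arrays 1 to 4. The same probe measured 12.59, 12.88, 13.41 and 13.49 on BTBR arrays 1 to 4. All 4 BTBR arrays were above all 4 B6 arrays, with the lowest BTBR value on array 1 and the highest B6 value on array 4. B6 mice averaged 11.74 ± 0.30 (SD, n = 4) against 13.09 ± 0.43 for the 4 BTBR mice, a difference of 1.35 (standard error 0.22, limma adjusted p = 0.0053). This is 2.55-fold, with a 95% confidence interval from 1.80 to 3.61. The exact two-sided permutation test over the 8 arrays gave p = 0.0286, the smallest that 4 against 4 arrays allow.

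The probe to the RefSeq transcript of Gabra2, A_51_P417507 (NM_008066, mm9 chr5:71352793-71352852, minus strand), showed the same order of the strains. It measured 11.52, 11.22, 11.65 and 11.92 in B6 and 12.39, 12.66, 13.19 and 13.36 in BTBR mice. The difference was 1.32 (standard error 0.23, limma adjusted p = 0.0068), or 2.50-fold with an interval from 1.75 to 3.57. The remaining probe, A_52_P446146 (cDNA AK048165, mm9 chr5:71350832-71350891, minus strand), measured 9.77, 9.75, 9.68 and 10.05 in B6 and 10.28, 10.62, 10.85 and 11.31 in BTBR mice. Again no B6 array reached the lowest BTBR array. Its difference was 0.95 (standard error 0.20, limma adjusted p = 0.018), or 1.94-fold with an interval from 1.42 to 2.64. The call of this remaining probe was lost without B6 1, B6 2 or B6 3, with limma adjusted p of 0.057, 0.058 and 0.063, and within slide 1 (0.69, limma adjusted p = 0.078), whereas the other 2 probes were called under every alternative run. The 3 probes lie close together in the gene, as their coordinates show, and their target bases were not compared with the BTBR genome, so that a difference in binding between the strains was not tested.

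Gabra2 also varied among the arrays of a strain. B6 2 had the lowest value of its brightest probe among the B6 arrays, and BTBR 1 and BTBR 2 had the lowest among the BTBR arrays. Each of these arrays had a high striatal or thalamic sum. B6 2, BTBR 1 and BTBR 2 are all on slide 1, and both slide 1 arrays were below both slide 2 arrays in each strain. The other slide 1 array, B6 1, had a striatal sum of 52.0% and a thalamic sum of 113% of the B6 mean. Its dentate sum, 150%, was the highest of all arrays. The part of the slide in the Gabra2 values was not tested. The summed intensity of 5 general neuronal markers stayed between 96.5% and 106% of the B6 mean on all 8 arrays, and 0 of the 5 were called. Sums of other cell types varied more, from 77.6% to 159% for interneuron and 80.0% to 146% for oligodendrocyte markers, and BTBR 2 had the highest of both. The astrocyte sum separated the strains without overlap, at 96.0% to 104% of the B6 mean in B6 and 72.5% to 90.4% in BTBR, and without Gfap, which was called lower by 1.30 (limma adjusted p = 0.0014), at 97.7% to 103% and 74.9% to 95.6%. The microglial sum was 97.4% to 104% in B6 and 110% to 135% in BTBR, a separation that rested on Cx3cr1, called higher by 1.41 (limma adjusted p = 1.1e-05). Without Cx3cr1 the sum overlapped, at 97.1% to 105% in B6 and 88.2% to 111% in BTBR, and 4 of the other 5 microglial markers had lower values in BTBR. The part of these markers in the Gabra2 values was not tested. On slide 1, which holds BTBR 1, BTBR 2 and B6 2, the difference of the brightest probe was 1.21, and on slide 2 it was 1.49 (2 arrays per strain on each slide, limma adjusted p = 0.0046 and 0.0021). Without BTBR 1, BTBR 2 and B6 2 together, a choice made after seeing the data, the 3 probes differed by 1.62, 1.59 and 1.24 in the order given above (limma adjusted p = 0.0028, 0.0016 and 0.011). With all 8 arrays the differences were 1.35, 1.32 and 0.95. Leaving out those 3 arrays also removes both BTBR arrays of slide 1, and leaving out BTBR 4 alone moved the differences the other way, to 1.22, 1.16 and 0.77.

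Gabra2 has 2 of the other subunit genes as neighbors on chromosome 5. The Gabra4 probe A_51_P393124 (NM_010251, mm9 chr5:71962623-71962682, minus strand) measured 13.96, 13.71, 13.62 and 13.75 in B6 and 14.05, 13.98, 13.57 and 13.63 in BTBR mice. The strains overlapped, with a difference of 0.05 (95% confidence interval -0.24 to 0.33, limma adjusted p = 0.89). The Gabrb1 probe A_51_P368757 (NM_008069, mm9 chr5:72528086-72528145, plus strand) measured 14.24, 14.12, 14.35 and 14.46 in B6 and 14.17, 13.84, 14.49 and 14.55 in BTBR mice. Its difference was -0.03 (95% confidence interval -0.38 to 0.32, limma adjusted p = 0.94). Both intervals end below the lower bound of the Gabra2 difference, which was 0.85 for the brightest probe. The sign of these 2 small differences turned when slide 2 was taken alone or when BTBR 1 or BTBR 2 was left out, that of Gabra4 also under 2 other scalings of the arrays.

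Within each array, the log2 value of the brightest Gabra2 probe was also taken relative to that of another subunit. From B6 to BTBR this relative value shifted by 1.31 against Gabra4, with SDs of 0.35 and 0.67 in B6 and BTBR mice (n = 4 each). The shift was 1.38 against Gabrb1, with SDs of 0.16 and 0.28, and 2.41 against Gabra5, with SDs of 0.18 and 0.84. These 3 pairs were chosen with the probe values known, and their shifts are given as a description, with no test.

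**Figure D2:**
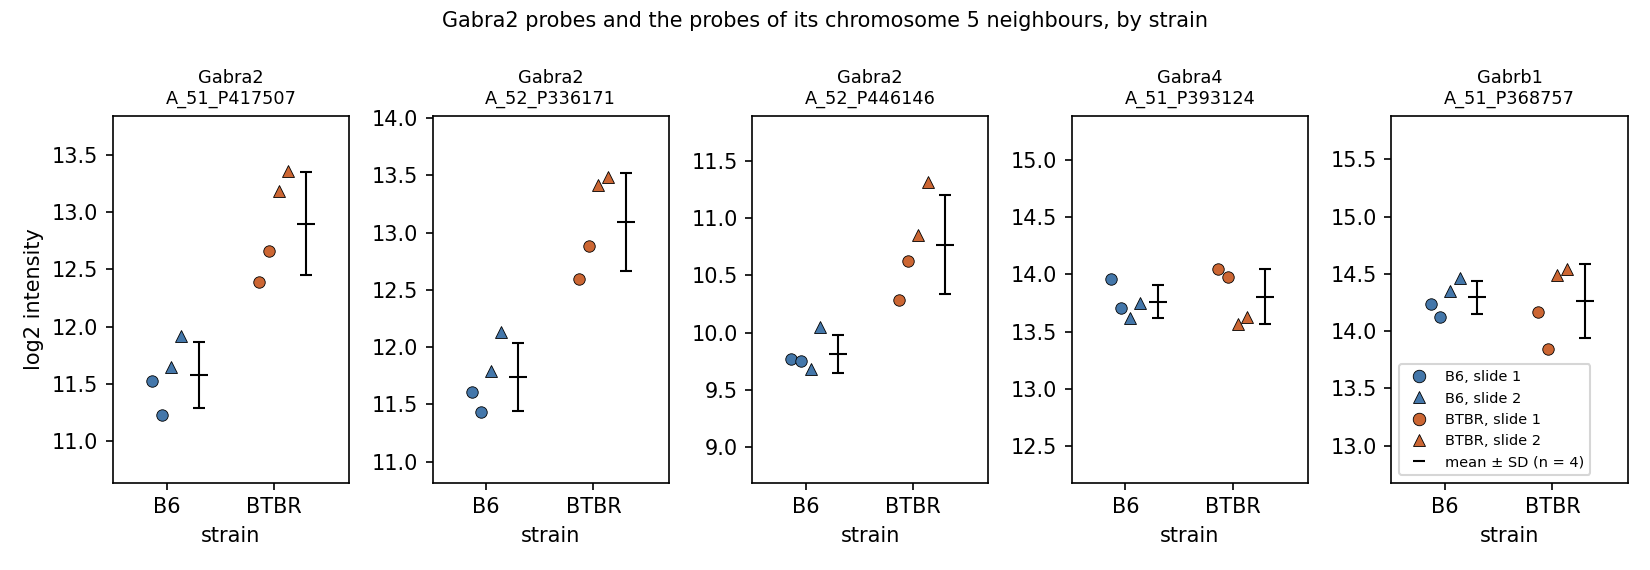
Log2 intensity on each array for the 3 Gabra2 probes and for the probes of its chromosome 5 neighbors Gabra4 and Gabrb1, by strain. Points are single arrays, bars give the mean and SD of 4 arrays, and every panel spans the same range of log2 units around its own center, so that the gap between strains at the Gabra2 probes (1.32, 1.35 and 0.95) can be seen beside the overlap at Gabra4 and Gabrb1.

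Gabra5 showed another pattern, in which 2 BTBR arrays stood apart and the other 2 did not. Its brightest probe, A_52_P143037 (NM_176942, mm9 chr7:64663486-64663545, minus strand), measured 14.05, 13.51, 13.86 and 14.23 in B6 mice. In BTBR mice it measured 11.76 and 11.83 on arrays 1 and 2, and 14.11 and 13.73 on arrays 3 and 4. BTBR 1 and BTBR 2 were thus below all B6 arrays, and BTBR 3 and BTBR 4 were within the B6 range. The second probe, A_51_P151316 (NM_176942, mm9 chr7:64744503-64744562, minus strand), measured 12.74, 12.29, 12.76 and 13.08 in B6. Its BTBR values were 10.75, 10.85, 12.98 and 12.35, in the same arrangement. Over all arrays the differences were -1.06 (95% confidence interval -2.25 to 0.14, limma adjusted p = 0.34) and -0.98 (-2.07 to 0.10, limma adjusted p = 0.33), and neither was called. The exact two-sided permutation p over all arrays was 0.229 and 0.2. Without single arrays the differences ranged from -1.47 to -0.69 at the brightest probe and from -1.40 to -0.66 at the second.

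The SD of Gabra5 among the BTBR arrays was 1.24 at the brightest probe and 1.11 at the second, larger than that of 99.7% and 99.5% of the tested probes, against 0.31 and 0.32 in B6. Within slide 1 the differences were -1.98 and -1.71, both called (limma adjusted p = 0.0027 and 0.0073), where 8.66% of all probes were called. Within slide 2 they were -0.13 and -0.25 and were not called (limma adjusted p = 0.91 and 0.79), where 3.7% of all probes were called. The difference between the slides was 1.86 and 1.46 (limma adjusted p = 0.40 and 0.41 for the interaction of slide and strain), so that it was not called over all probes either. In that test 0 probes of the array were called (0%), and 3 of the 13 subunit probes and 2780 of all tested probes (9.94%) had an unadjusted limma p under 0.05. The 3 subunit probes were the 2 of Gabra5 and that of Gabrd.

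BTBR 1 and BTBR 2 were also the arrays with the lowest summed hippocampal markers. The sum of 8 dentate markers was between 48.5% and 150% of the B6 mean in B6 mice, 31.0% and 16.0% on BTBR 1 and BTBR 2, and 93.5% and 75.7% on BTBR 3 and BTBR 4. The sum of 5 CA1 markers was 60.9% and 70.9% on BTBR 1 and BTBR 2 and between 92.0% and 135% on the other 6 arrays. The sum of 4 measured CA3 markers was 64.1% and 49.1% on these 2 arrays and between 78.4% and 124% on the others. Marker by marker, 5 of 8 dentate, 3 of 5 CA1 and 2 of 4 CA3 markers were lower on both arrays than on each of the other 6, and 1 CA3 marker was higher on both. All 6 oligodendrocyte markers were higher on both. Of the 8 choroid plexus markers, 7 were higher on both arrays than on each of the other 6, as were 7 of the 10 thalamic markers. How many of all genes were ordered in these ways was not counted. One thalamic marker, Gbx2, was well above background on only 4 arrays. The dentate markers Trpc6 and Stxbp6 were called lower in BTBR over all arrays, by 0.95 and 0.55 (limma adjusted p = 0.046 and 0.034), and 0 of the 8 were called higher. Without BTBR 1, BTBR 2 and B6 2 the differences of Gabra5 were -0.13 and -0.19 (limma adjusted p = 0.79 and 0.75). The part of the tissue markers in the Gabra5 values was not tested.

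Gabrd, the delta subunit, was measured by the single probe A_51_P149623 (NM_008072, minus strand of mm9 chromosome 4), for which the files give the 19 bases chr4:154759071-154759089. It measured 14.04, 14.40, 13.72 and 13.42 in B6 and 14.87, 15.03, 13.69 and 13.64 in BTBR mice. BTBR 1 and BTBR 2 were above every B6 array, and the other 2 BTBR arrays were within the B6 range. The difference was 0.41 (95% confidence interval -0.40 to 1.22, limma adjusted p = 0.63). Without single arrays the difference ranged from 0.17 to 0.63. Within slide 1 it was 0.73 and was called (limma adjusted p = 0.031), and within slide 2 it was 0.09 (limma adjusted p = 0.90). Without BTBR 1, BTBR 2 and B6 2 the difference was -0.06 (limma adjusted p = 0.93), with the sign turned. Gabrd was thus high on the 2 arrays on which Gabra5 was low, which were also those with the lowest dentate sums. The same 2 arrays had the highest choroid plexus sums, 239% and 227% of the B6 mean against 50.7% to 142% on the other arrays. They also had the highest thalamic sums, 548% and 117% against at most 113%, and the highest oligodendrocyte sums, 126% and 146% against at most 105%. Whether the markers account for this was not tested.

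**Figure D3:**
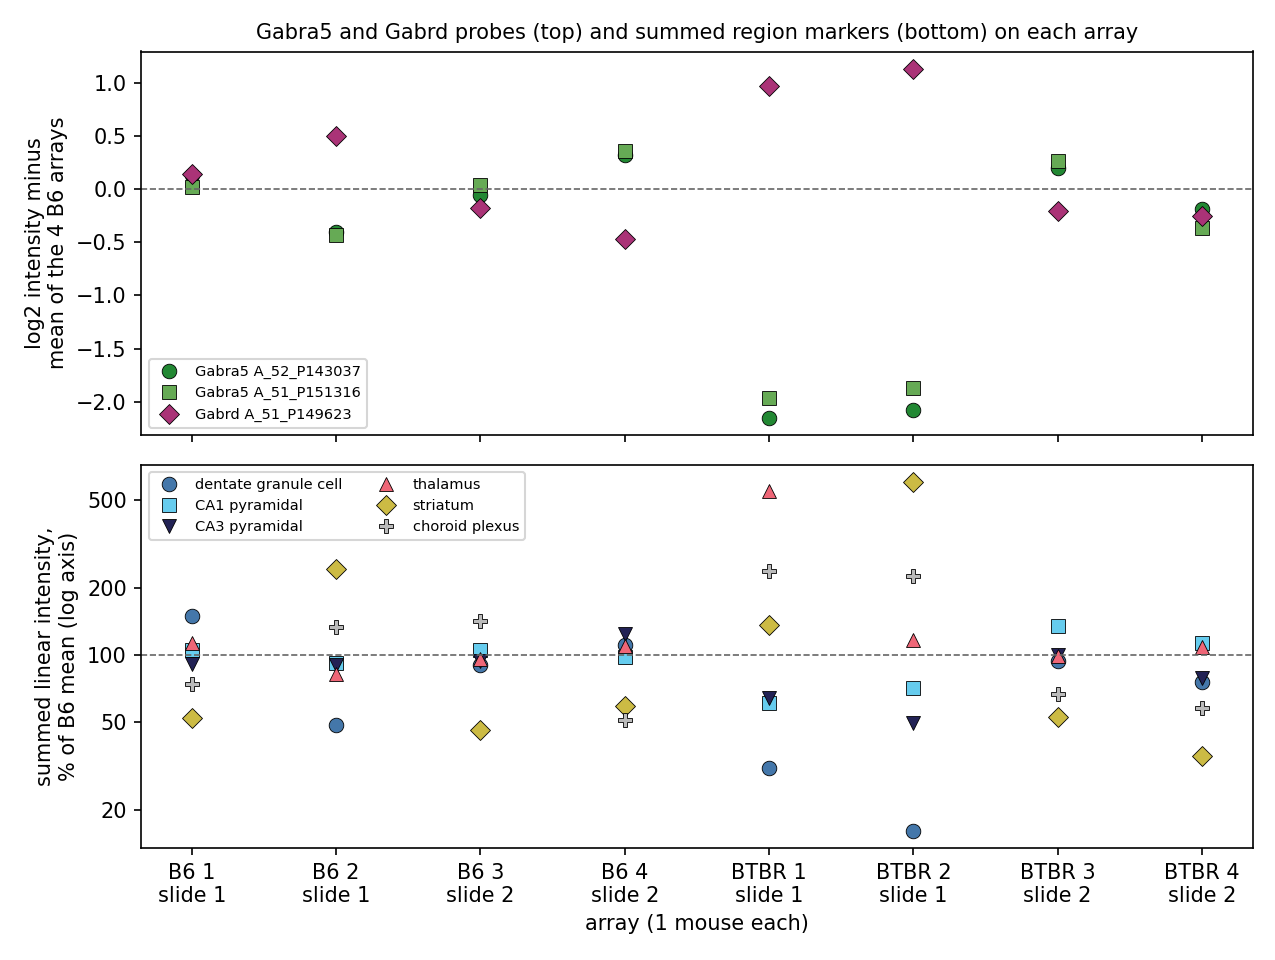
Top, log2 intensity of the 2 Gabra5 probes and the Gabrd probe on each array, as the distance from the B6 mean of that probe. Bottom, summed linear intensity of 6 lists of region markers on the same arrays as a percent of the B6 mean, on a log axis, where BTBR 1 has the highest thalamic sum (548%), BTBR 2 the highest striatal sum (603%), and both have the lowest dentate sums (31.0% and 16.0%).

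Gabra3, the remaining alpha subunit, did not differ between the strains beyond the spread of the arrays. Probe A_52_P264550 (NM_008067, mm9 chrX:69679157-69679216, minus strand) measured 10.82, 11.29, 11.07 and 10.74 in B6 and 11.56, 11.08, 10.55 and 10.87 in BTBR mice. The ranges overlapped, with a difference of 0.04 (95% confidence interval -0.44 to 0.51, limma adjusted p = 0.95). Probe A_52_P364645 (NM_008067, mm9 chrX:69746547-69746606) was well above background on 3 of 4 arrays in each strain, with values from 8.06 to 8.44 in B6 and from 8.08 to 8.55 in BTBR. Its difference was 0.07 (95% confidence interval -0.21 to 0.35, limma adjusted p = 0.83). The last Gabra3 probe, A_52_P907953 (cDNA AK082413, mm9 chrX:69731490-69731549), stayed near background on all arrays and was not tested.

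Of the beta subunits, Gabrb2 was called higher in BTBR at 1 of its 3 tested probes, by a small margin. Probe A_52_P460687 (NM_008070, mm9 chr11:42442194-42442253, plus strand) measured 10.82, 10.75, 10.86 and 10.82 in B6 and 11.12, 11.01, 11.23 and 11.21 in BTBR mice. The strains did not overlap, and the B6 arrays were close to each other, with an SD of 0.05 (n = 4). The difference was 0.33 (standard error 0.07, limma adjusted p = 0.018), or 1.26-fold with a 95% confidence interval from 1.13 to 1.40. This call was lost without B6 2, B6 4 or BTBR 4, with limma adjusted p of 0.066, 0.052 and 0.051. Within the slides the differences were 0.28 and 0.38, not called in either (limma adjusted p = 0.087 and 0.062).

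The brightest Gabrb2 probe, A_51_P227679 (NM_008070, mm9 chr11:42445782-42445841, plus strand), measured 15.11, 15.11, 15.21 and 15.13 in B6 and 15.61, 15.39, 15.32 and 15.41 in BTBR mice. Here too all BTBR arrays were above all B6 arrays. The difference was 0.29 (95% confidence interval 0.12 to 0.46), and its limma adjusted p of 0.0505 was just outside the threshold of 0.05. It was called under 4 of 21 alternatives, namely with normexp background correction (0.047), with the deposited matrix (0.035), with the trend and robust options of limma (0.038) and without BTBR 3 (0.037). Under the other 17 it was not called, with limma adjusted p up to 0.54. Probe A_52_P91563 (NM_008070, mm9 chr11:42444018-42444077) lies between the other 2 and measured 14.47, 14.48, 14.31 and 14.35 in B6 and 14.56, 14.49, 14.44 and 14.51 in BTBR mice. It overlapped between the strains and differed by 0.10 (95% confidence interval -0.05 to 0.25, limma adjusted p = 0.49). The last probe, A_52_P260709 (ENSMUST00000143626, mm9 chr11:42344720-42344779), stayed near background on all arrays. The 3 tested Gabrb2 probes thus all had a positive difference with overlapping intervals, and whether they differed from each other was not tested.

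**Figure D4:**
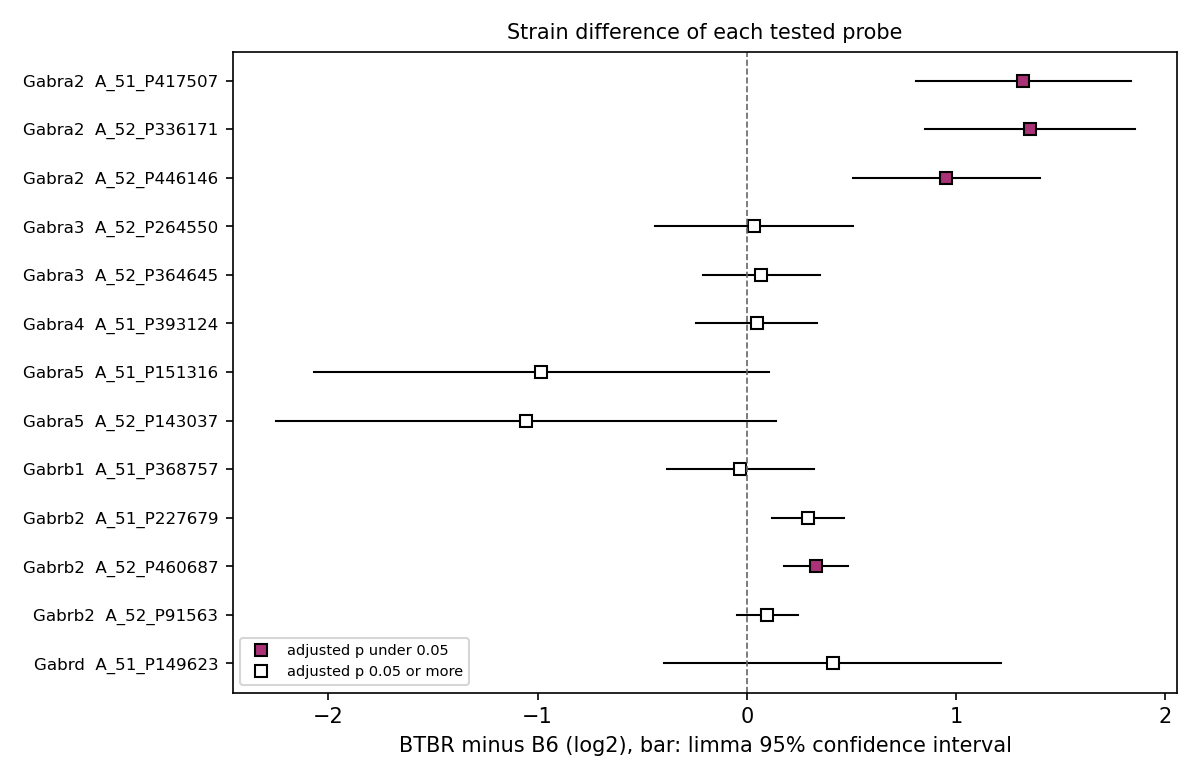
Strain difference of the 13 tested probes (squares, log2) with the 95% confidence interval of limma (bars). Filled squares mark the 4 probes called, 3 of Gabra2 and 1 of Gabrb2, and the widest intervals are those of Gabra5, from -2.25 to 0.14 and from -2.07 to 0.10.

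**Figure D5:**
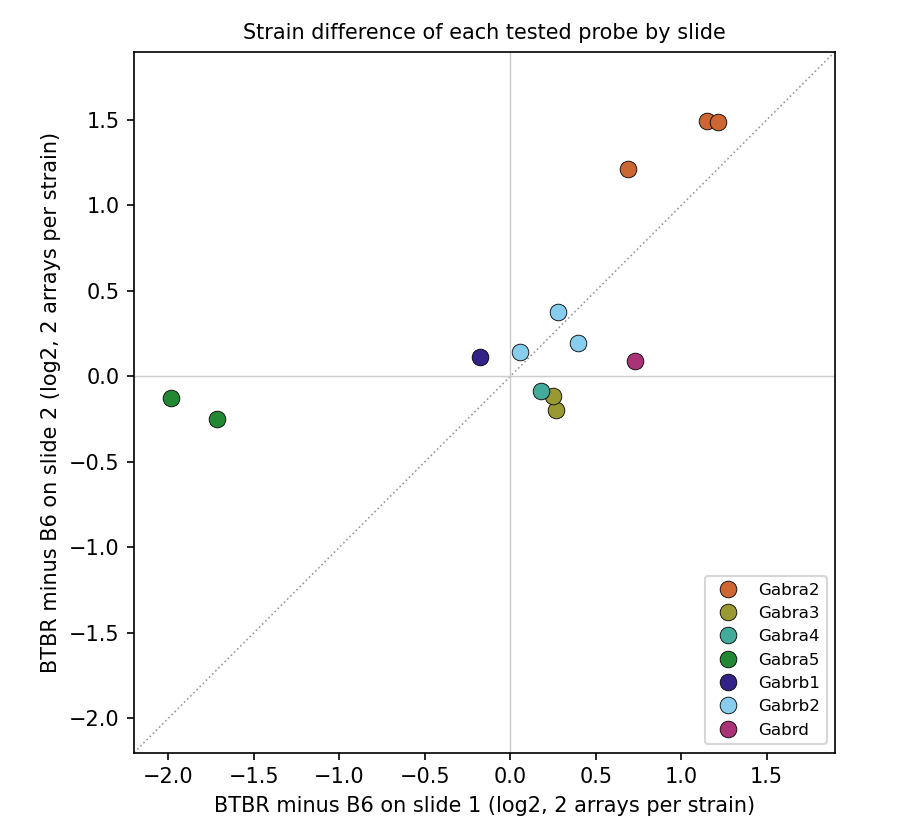
Strain difference of each tested probe on slide 1 (horizontal axis) and slide 2 (vertical axis), in log2 units and from 2 arrays per strain on each slide, with the dotted line marking equal differences. The Gabra2 probes lie at the upper right on both slides, whereas Gabra5 (-1.98 and -1.71) and Gabrd (0.73) are far from 0 on slide 1 alone.

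The subunits could also be set beside the genes whose profile over the 8 arrays was most like theirs. This was done for the 4 genes whose brightest probe spanned more than 1 log2 unit, and the correlations describe 8 arrays of 2 strains without a test. The profile of Gabra2 was most like those of Iqcc (r = 0.990) and Mmp14, a membrane-bound matrix metalloproteinase (r = 0.982). Both were higher in BTBR, by 0.40 and 1.01, which follows from their choice by likeness to Gabra2 on the same arrays. The profile of Gabra5 was most like those of Lmo1, a transcriptional regulator (r = 0.997), and C77370 (r = 0.997). By the same choice these were also lowest on BTBR 1 and BTBR 2. Lmo1 measured 10.11 and 10.04 there, against at least 11.60 on the other arrays. The profile of Gabrd was most like those of Cchcr1 (r = 0.995) and Pipox (r = 0.988). That of Gabra3 was most like those of Stx1a, a syntaxin of the presynaptic membrane (r = 0.997), and Pamr1 (r = 0.985).

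The other genes of GABA signaling were described by lists, with each gene taken by its brightest tested probe. Of 45 genes 41 were tested, 1 was called higher in BTBR and 0 were called lower, beside the 7.82% of all genes called in either direction and 3.49% as higher. Over the 41 genes 7 had an unadjusted limma p under 0.05, a share that was not counted over all genes. The median difference of the 41 genes was 0.04, against 0.01 over all genes. The gene called was Slc12a2, the chloride importer NKCC1, one of the transporters that act on the chloride gradient that these receptors use. It measured 11.01, 11.07, 11.21 and 10.99 in B6 and 12.59, 12.63, 11.80 and 11.55 in BTBR mice, so that the strains did not overlap and BTBR 1 and BTBR 2 were highest. The difference was 1.07 (standard error 0.24, limma adjusted p = 0.024). The call was lost without any 1 of B6 1, B6 2, B6 3, B6 4, BTBR 1 or BTBR 2, with adjusted p between 0.053 and 0.074. Without BTBR 1, BTBR 2 and B6 2 together the difference was 0.62 (limma adjusted p = 0.038). Slc12a2 is also strongly expressed by the choroid plexus, whose markers were high on BTBR 1 and BTBR 2, and the part of that tissue in its level was not tested.

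Neither of the steps before and after the receptor gave a call, where 7.82% of all genes were called in either direction. Of 3 genes of GABA synthesis and vesicle loading, 6 of GABA uptake and breakdown, 2 of the GABA-B receptor and 21 of anchoring and trafficking of GABA-A receptors, 0 were called by limma, and 2, Slc6a13 and Iqsec3, had an unadjusted p under 0.05. Their median differences were 0.35, 0.27, 0.15 and -0.04 (log2). The largest among these genes was that of Slc6a13, a GABA transporter, at 1.02 (standard error 0.41, limma adjusted p = 0.22). The 11 other genes whose symbols start with Gabr had 14 tested probes, of which 1 was called higher and 2 lower in BTBR. These 3 of 14 calls stand beside 7.61% of all tested probes called in either direction, 3.31% as higher and 4.3% as lower. By the brightest probe, 0 of the 7 of these genes with a tested probe were called, and 3 had an unadjusted limma p under 0.05. Shares of all genes at that unadjusted level were not counted.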

How the data were processed

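Total RNA from the hippocampi of 4 BTBR and 4 B6 mice was hybridized by the authors to single-color Agilent 4x44K arrays. The deposited files hold the intensity of each spot as read by the Feature Extraction software of Agilent (10.7.3.1 per the file headers, 9.1 per the labels), with mm9 probe coordinates. The deposited matrix holds log2 values that the authors background corrected and quantile normalized, and it was used as an alternative. From the intensities, mean signal minus median background was set to at least 0.5, raised by an offset of 50, taken to log2 and quantile normalized. Replicate spots were summarized by the median. Probes had to be well above background on 75% of the arrays of a strain, and controls and 154 outlier-flagged probes were dropped, which left 27981 of 41174 probes and 18398 gene names. Strains were compared with limma 3.58.1 in R 4.3.3, with Benjamini-Hochberg adjustment over all tested probes and calls under 0.05, and with exact permutation tests. On simulated data for this comparison, with 200 of 27981 probes changed, limma recovered 40.5% at a log2 change of 0.5, 85% at 1 and 98% at 2. The simulated noise was independent between probes, and the real data gave 2129 calls, so that these rates need not hold for the real data. The rank product named in the methods permutes probes within arrays and was not run. Figures were drawn with matplotlib. Slides came from the file headers. Summed markers are background-subtracted linear intensities over each list. Nothing states that replicates shared a litter or day, and the p-values measure the spread between these samples.

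Every probe of the 7 genes is named. Genes of the pathway lists are named where limma called their brightest probe, similar profiles by the 2 highest correlations, and markers beside a subunit's values. Slc6a13 and Iqsec3 were added to the named genes once their values had been read. The members and lists were chosen with earlier results of these data known. The lists covered neuron, interneuron, dentate, CA1, CA3, thalamus, striatum, choroid plexus, astrocyte, oligodendrocyte and microglia markers and GABA signaling. Alternatives changed the background correction, scaling, filter, flags, block, limma options and arrays. The other genes with symbols starting Gabr are counted and not reported here by name.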

Additional observations from a re-analysis of the deposited data

How the results depend on the processing

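Of the 275 comparisons of a subunit probe or gene with its value under another setting, 240 kept both the direction and the side of the threshold, 9 lost the call, 7 gained one and 19 changed sign. All sign changes were at differences that were not called. Processed signal minus the 75th percentile gave -0.0033 for Gabra4 A_51_P393124, and median centring gave -0.018. Within slide 2 the values were -0.19 and -0.11 for Gabra3 A_52_P264550 and A_52_P364645, -0.088 for Gabra4 and 0.11 for Gabrb1. Without single arrays the values ranged from -0.15 to 0.19 and -0.014 to 0.17 for these 2 Gabra3 probes, -0.035 to 0.13 for Gabra4 and -0.13 to 0.11 for Gabrb1. Without BTBR 1, BTBR 2 and B6 2, a setting added after seeing the data, the values were -0.16 for Gabra3 A_52_P264550, -0.18 for Gabra4, 0.17 for Gabrb1 and -0.063 for Gabrd. The cause was not tested.

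The 4 called subunit probes became 2 to 5 when single arrays were left out, with the lowest number without B6 2, 5 within slide 1 and 3 within slide 2. The 5 within slide 1 were Gabra2 A_51_P417507 and A_52_P336171, both Gabra5 probes, which were lower in BTBR, and Gabrd. Gabra2 A_52_P446146 and Gabrb2 A_52_P460687 were not called there. The 3 within slide 2 were those of Gabra2. The 2129 calls over all probes became 1490 to 2182 without single arrays, 2422 within slide 1, 1036 within slide 2 and 1207 with the 5 remaining arrays. The 1 called gene of the pathway lists became 0 to 1 without single arrays and 2 within slide 1. With the replicate block limma called 4 subunit probes and 1650 of all probes, and it changed no call among the subunit probes. Same-numbered arrays correlated from -0.14 to 0.51, with 2 of 4 pairs above 0.1, so the numbers were not taken as pairs. No alternative moved the median over all probes beyond 0.03. In the simulated data, with 4 arrays per strain, changes of 0.5 were often missed. The 2 dim probes not well above background carry no information on strain.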
